A study of Homo sapiens with 8 samples.

Results

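TSPYL1, TSPYL2, TSPYL4, TSPYL5 and TSPYL6 are the human testis-specific protein Y-encoded-like genes, and they were examined as 5 of 20033 protein-coding genes for binding of RFX7, a transcription factor of the RFX (regulatory factor X) family. Binding was read from ChIP-seq, the sequencing of DNA recovered by chromatin immunoprecipitation, in U2OS, an established human osteosarcoma cell line. U2OS cells received Nutlin-3a at 10 µM or its solvent DMSO for 24 h, and each treatment had 2 RFX7 immunoprecipitations, made with 3 µg of antibody, and 2 input samples. Nutlin-3a frees p53 from MDM2 and so stabilises p53; DMSO cells are the unstimulated control of the same line, and neither arm carries an engineered allele in the labels. The deposited files hold 1 merged list of bound intervals per treatment, 213 intervals after DMSO and 304 after Nutlin-3a, with no values of single replicates and an unknown read depth. The values below therefore carry no replicate error, and no test is given.

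The family was chosen by its intervals in these lists, so that having an interval is not a finding. For each gene, every interval was taken whose midpoint lay inside the gene or within 50 kb of either end on GRCh38 (hg38). By this rule 3 of the 5 genes had an interval after Nutlin-3a and 0 of 5 after DMSO. Over all protein-coding genes the same rule called 2.94% after Nutlin-3a and 0.559% after DMSO, and nothing is read from the members' counts against these shares. The 3 genes rested on only 2 intervals, since TSPYL1 and TSPYL4 shared one. TSPYL5 and TSPYL6 had none in either list.

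TSPYL proteins carry the nucleosome assembly protein (NAP) domain, the fold by which NAP1 and SET act as histone chaperones that hand histones to and from DNA. They are named for TSPY, a gene of the Y chromosome, but lie on autosomes and on the X chromosome. RFX proteins recognise the X-box, an inverted repeat each arm of which reads GTTGCC in its usual form. TSPYL1 is the gene mutated in sudden infant death with dysgenesis of the testes. TSPYL2, also named CDA1, DENTT and TSPX, is known as a nuclear inhibitor of cell growth that binds the scaffold protein CASK. TSPYL5 has been described as a partner of USP7, the deubiquitinase that acts on p53.

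The 250 bases upstream of the RefSeq start are shown for the 2 genes with an interval over the start, TSPYL1 and TSPYL2, and for TSPYL4, whose start is without one. Sequences are from RefSeq GRCh38.p14, 5′ to 3′ in the direction of the gene. Capitals mark letters that match the X-box arm or the X-box-like form TTGCNATGG described further on. The TSPYL1 stretch is chr6:116279931-116280180 on the minus strand and lies wholly inside the Nutlin-3a interval. The TSPYL2 stretch is chrX:53082117-53082366 on the plus strand and also lies wholly inside its interval. The TSPYL4 stretch is chr6:116254076-116254325 on the minus strand.
TSPYL1: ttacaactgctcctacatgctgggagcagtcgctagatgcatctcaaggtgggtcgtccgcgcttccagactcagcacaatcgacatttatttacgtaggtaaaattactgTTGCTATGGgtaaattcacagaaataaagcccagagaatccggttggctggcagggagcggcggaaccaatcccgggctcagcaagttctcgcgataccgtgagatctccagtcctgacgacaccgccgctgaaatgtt
TSPYL2: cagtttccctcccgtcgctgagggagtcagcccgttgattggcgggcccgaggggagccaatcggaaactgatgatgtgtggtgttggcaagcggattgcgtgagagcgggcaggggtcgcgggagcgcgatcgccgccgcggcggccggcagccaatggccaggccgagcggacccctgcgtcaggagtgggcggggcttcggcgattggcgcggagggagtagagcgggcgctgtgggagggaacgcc
TSPYL4: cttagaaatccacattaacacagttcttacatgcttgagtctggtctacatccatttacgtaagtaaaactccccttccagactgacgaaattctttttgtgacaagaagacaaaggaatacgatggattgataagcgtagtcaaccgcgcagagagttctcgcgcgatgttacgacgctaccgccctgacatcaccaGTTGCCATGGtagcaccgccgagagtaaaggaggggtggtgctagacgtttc

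TSPYL2 had the higher-ranked interval. It lay at chrX:53081891-53082373, was 483 bp wide and showed 7.69-fold enrichment at a −log10 q of 30.05, both as deposited by the authors. It ranked 35 of 304 by −log10 q and 41 by fold enrichment, so that 87.2% of the Nutlin-3a list had a lower −log10 q. It was number 2 among the 8 Nutlin-3a intervals on the X chromosome. This rank is not unique: 5 intervals shared the −log10 q, and 4 of these also shared the fold enrichment. The nearest distinct −log10 q values were 30.1 above and 29.7 below it, so the order among such neighbours carries little information.

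The TSPYL1 interval lay at chr6:116279734-116280417 and was 684 bp wide. Its fold enrichment was 5.30 and its −log10 q 13.4, against list medians of 4.71 and 10.2. It ranked 116 by −log10 q and 121 by fold enrichment, with 60.9% of the list below it by −log10 q, and it was number 4 of the 13 Nutlin-3a intervals on chromosome 6. By width the order was the other way round: 49 intervals of the list were wider than that of TSPYL1 and 88 were wider than that of TSPYL2. The interval of TSPYL2 thus had the higher scores and that of TSPYL1 the greater width.

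**Figure D1:**
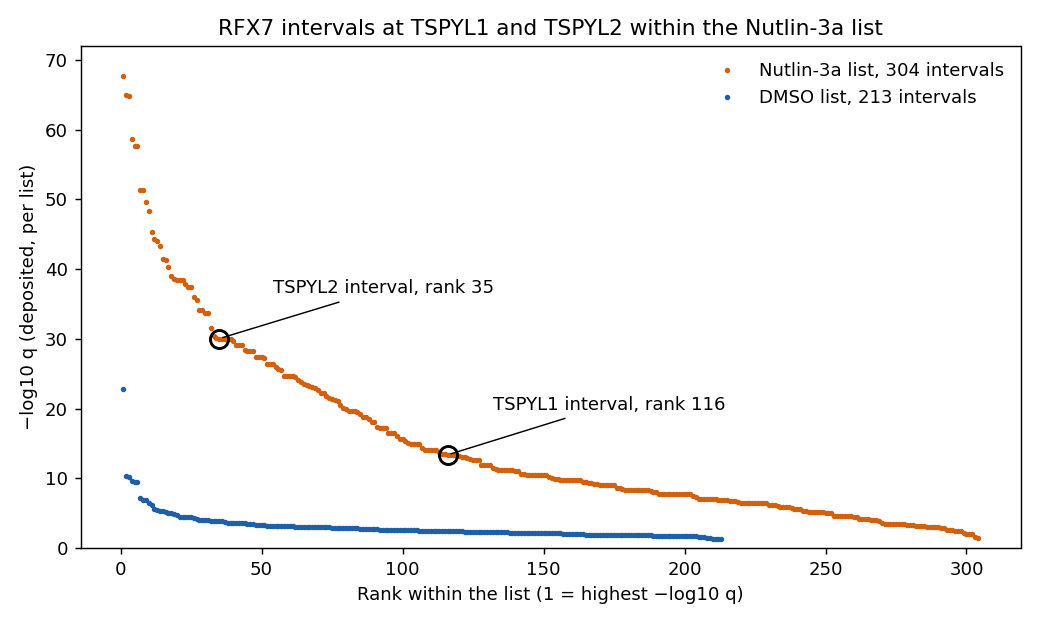
The −log10 q of every interval (vertical axis, as deposited) is plotted by its rank within its own list (horizontal axis), with 304 Nutlin-3a intervals in orange and 213 DMSO intervals in blue. Circles mark the TSPYL2 interval at rank 35 and the TSPYL1 interval at rank 116; no DMSO interval lay within 50 kb of a TSPYL gene, and the heights of the lists are not comparable because their depth is unknown.

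Neither interval overlapped a DMSO interval, and nor did most of the list: only 22 of the 304 Nutlin-3a intervals overlapped one. The DMSO list held 7 intervals on chromosome 6, and the nearest midpoint to TSPYL1 was 6653349 bp away. The DMSO list held 0 intervals on the X chromosome. Within the Nutlin-3a list, all 22 intervals that overlapped a DMSO interval ranked 78 or better; within the DMSO list, overlapping intervals reached down to rank 167 of 213. The TSPYL1 interval stood below that point, and of the 21 other intervals ranked from 106 to 126 none overlapped a DMSO interval. Around TSPYL2, 7 of the 21 other intervals ranked from 25 to 45 overlapped one. Of the 34 intervals ranked above that of TSPYL2, 14 overlapped one. The TSPYL2 interval was thus among the larger part of these intervals, which had no overlap. The median −log10 q of the DMSO list was 2.49, and absence from it is not a measured loss of binding. The part of read depth in this absence was not tested.

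Both intervals sat on gene starts. The TSPYL2 interval ran from position -476 to position 6, counted in bp from the RefSeq start at 0, and its midpoint was 235 bp upstream. It covered only 7 bp of the gene, and no other protein-coding gene end was closer than 1517 bp. The TSPYL1 interval ran from position -487 to position 196, with its midpoint 145 bp upstream, and covered 197 bp of the gene. Among the 119 Nutlin-3a intervals with a midpoint within 1 kb of a protein-coding start, the median midpoint was at position -61, with the 25th percentile at -219.5 and the 75th at 82.5. TSPYL1 fell inside that range and TSPYL2 just upstream of it.

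Counted by the 300 bp start windows of RefSeq (250 bp before to 50 bp after a start), which were available for 4 of the 5 members, an interval covered a start of TSPYL1 and TSPYL2 after Nutlin-3a. The starts of TSPYL4 and TSPYL6 were not covered. After DMSO 0 of the 4 were covered. Over all protein-coding genes with such a window, 0.644% had an interval over a start after Nutlin-3a and 0.0442% after DMSO. TSPYL5 is not among the genes with a window in that table.

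The TSPYL1 interval also covered a start of a second gene. TSPYL1 and TSPYL4 are read from the minus strand and lie 20783 bp apart, and DSE, which encodes dermatan sulfate epimerase, is read from the plus strand through the same region, so that TSPYL1 lies between the boundaries of DSE. RefSeq gives DSE a start 96 bp from that of TSPYL4 and another 156 bp from that of TSPYL1, each head to head with the TSPYL gene. The midpoint of the interval was 11 bp upstream of this second DSE start and 145 bp upstream of the TSPYL1 start. Of the 119 start-proximal Nutlin-3a intervals, 7 (5.88%) had starts on both strands within 1 kb of the midpoint. Which of these genes the bound protein acts on cannot be told from an interval.

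TSPYL4 met the rule only through this same interval, at 26000 bp from the gene. Its own start, paired with the first DSE start, had no interval in either list. Of the members within the 50 kb limit TSPYL4 was the farthest, at 26000 bp, and of those beyond it TSPYL6 was the nearest, at 200084 bp.

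**Figure D2:**
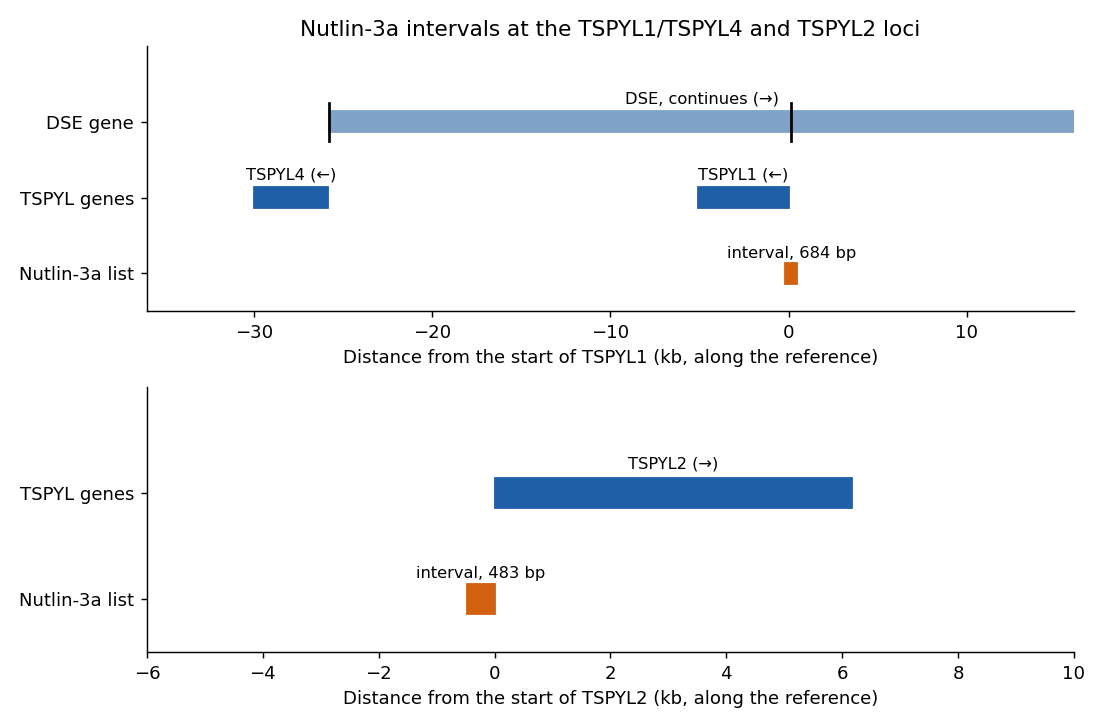
Gene bars (blue; DSE in light blue, with ticks at its 2 RefSeq starts in view) and Nutlin-3a intervals (orange) are drawn to scale by distance in kb from the start of TSPYL1 (upper panel) and of TSPYL2 (lower panel), and arrows give the direction of reading. The 684 bp interval covers the paired starts of TSPYL1 and DSE while the paired starts of TSPYL4 and DSE, on the left, have none; the 483 bp interval ends just inside TSPYL2.

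Letters of the X-box were searched on both strands in the same start windows. The arm GTTGCC was found in 1 member, TSPYL4, at positions -52 to -47, as part of the longer form GTTGCCAT. The arm occurred in 12.2% of all 35116 RefSeq start windows and the longer form, which contains it, in 1.35%. A full X-box, read as GTNNCC followed after 0 to 3 bases by GGNNAC, was in none of the 4 member windows and in 3.87% of all windows. The TSPYL4 letters lay 25950 bp from the midpoint of the nearest Nutlin-3a interval, that of TSPYL1. The member with the X-box arm was thus one without an interval at its start.

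TSPYL1 carried a near form of the arm at its interval, found after its sequence had been read. Its letters differ from GTTGCC by the substitution C6T, counted from 1 at the first base of the arm. With the bases that follow they match TTGCNATGG, which was in 1.32% of all windows and, among members, in TSPYL1 and TSPYL4. In TSPYL1 this form lay at positions -139 to -131, on the strand of the gene, and its centre was 10 bp from the midpoint of the 684 bp interval. The TSPYL1 window held 300 bp of that interval, and the other 384 bp lay outside it. Whether an exact arm stands elsewhere in the interval was therefore not fully searched. Read for 14 bases from the first base of the arm, the TSPYL1 and TSPYL4 letters were the same at 9 positions. As an inverted repeat, 5 of 7 mirrored base pairs were complementary in TSPYL4 and 3 of 7 in TSPYL1. Near forms of the arm were not limited to this TSPYL1 site. The letters GTTGGC, which also differ from GTTGCC by 1 substitution, stand elsewhere in the TSPYL1 stretch and in the TSPYL2 stretch, inside the intervals. GTTGAC, again 1 substitution from GTTGCC, stands in the TSPYL6 window and, on the opposite strand, in the TSPYL4 stretch. The starts of TSPYL4 and TSPYL6 had no interval, so a near arm did not set apart the members with one. The share of windows with such a near arm was not counted, so the near arm of TSPYL1 is not shown to be uncommon.

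In the TSPYL2 window GTTGCC, GTTGCCAT, the full X-box and TTGCNATGG were not found, although the near arm GTTGGC was present. The window held 257 of the 483 bp of the interval, and the other 226 bp were not searched. Among all 146 RefSeq start windows overlapped by a Nutlin-3a interval, the arm GTTGCC was in 28.1%, GTTGCCAT in 4.11%, the full form in 4.79% and TTGCNATGG in 3.42%. Most windows with an interval, like those of TSPYL1 and TSPYL2, were thus without the arm GTTGCC in the letters covered. The share of TTGCNATGG rested on 5 windows. These include the TSPYL1 window, whose letters were read before this form was written, and an overlapping DSE window with the same site. Nothing is therefore read from that share against the share of all windows. A match describes letters and is not a bound site, and a missing match says only that these letters are not in the window.

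**Figure D3:**
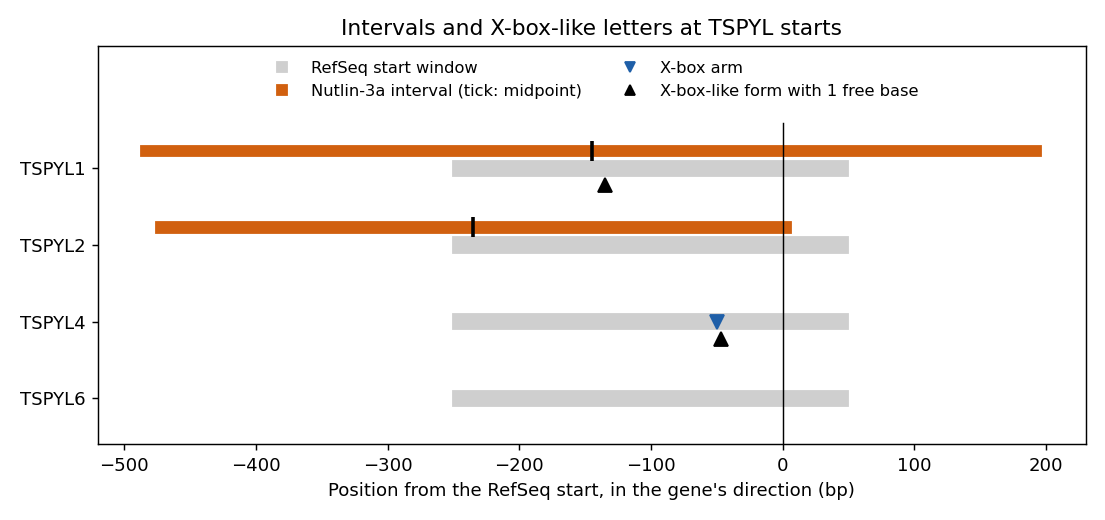
For the 4 members with a RefSeq start window (grey), positions are given in bp from the start in the direction of the gene, with Nutlin-3a intervals in orange, their midpoints as ticks, X-box arms as blue triangles and the form TTGCNATGG as black triangles. The TSPYL1 form sits 10 bp from the interval midpoint, the TSPYL4 arm has no interval over it, and TSPYL2 has an interval without a match in its window.

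The start windows differed in composition as well. The G and C content was 68.7% in TSPYL2, 54.0% in TSPYL1, 50.3% in TSPYL4 and 49.0% in TSPYL6, with 32, 21, 19 and 14 CpG dinucleotides in that order. TSPYL1 and TSPYL4 shared the 10-letter runs cttccagact and agttctcgcg, found in 0.125% and 0.117% of all windows. The second run began at position -55 of TSPYL1 and at position -95 of TSPYL4. TSPYL2 and TSPYL6 shared a run of the same length, gagtgggcgg, found in 0.641% of all windows, so that runs of 10 letters were not limited to TSPYL1 and TSPYL4. The longest run shared by TSPYL1 and TSPYL2, the members with an interval over the start, was 8 letters.

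TSPYL6 is a small gene of chromosome 2, from 54253178 to 54256229, inside ACYP2, which encodes an acylphosphatase. Its nearest Nutlin-3a interval, at 200084 bp, was a weak one that ranked 240 with a −log10 q of 5.61, and it lay 14 bp from an end of SPTBN1, the gene of a beta spectrin. The nearest DMSO midpoint to TSPYL6 was 1620458 bp away. Both distances are far outside the 50 kb limit.

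TSPYL5 lies on chromosome 8, from 97273488 to 97277928, within the long noncoding gene LOC101927066. Its nearest Nutlin-3a midpoint was 2323836 bp away, against a median of 2878734 bp over the 19970 protein-coding genes on chromosomes with an interval. The end of another gene was much closer to that interval: it lay 274 bp from an end of TP53INP1, a p53-inducible stress gene, and had the same −log10 q of 30.05 and the same fold enrichment of 7.69 as the TSPYL2 interval. The nearest DMSO midpoint was 4867853 bp from TSPYL5. SPTBN1 and TP53INP1 are named here because of these distances, after their values were seen.

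**Figure D4:**
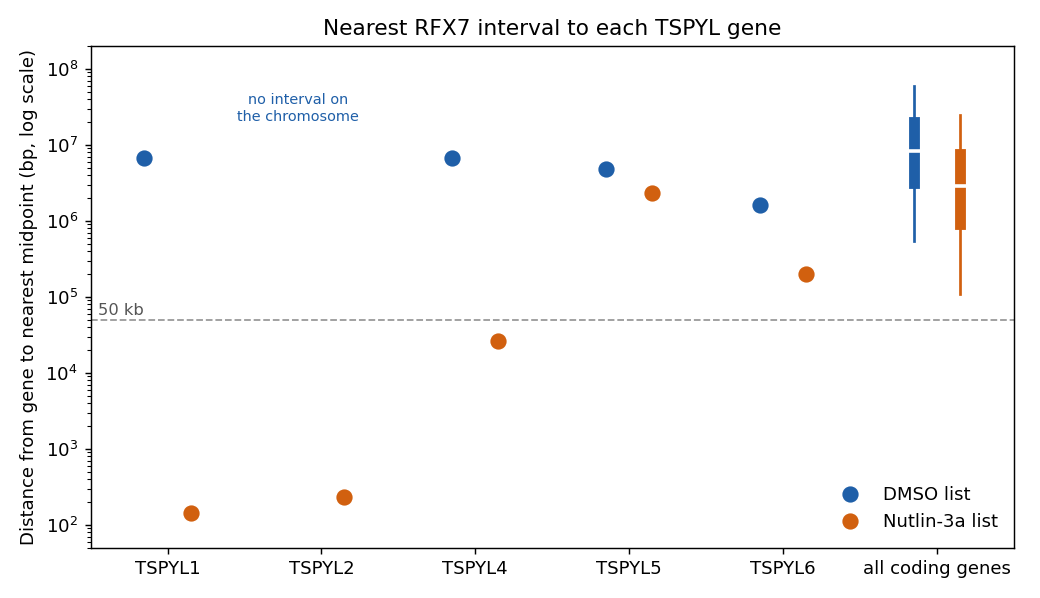
The distance in bp (log scale) from each TSPYL gene to the nearest interval midpoint is plotted for the DMSO list (blue) and the Nutlin-3a list (orange), with all protein-coding genes at the right (thin line, 5th to 95th percentile; thick bar, 25th to 75th; white tick, median) and the 50 kb limit dashed. TSPYL1 and TSPYL2 lie at 145 and 235 bp after Nutlin-3a, TSPYL4 at 26000 bp, and no DMSO distance is below 1 Mb.

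Related chaperone genes were placed by the same rule. Of 6 genes of the wider NAP family, namely NAP1L1 to NAP1L5 and SET, 0 had an interval in either list. Of 26 genes of other histone chaperones, 3 had a Nutlin-3a interval and 0 a DMSO interval. These were ATRX, HIRA and CABIN1. ATRX encodes the chromatin remodeller that deposits histone H3.3 together with DAXX, and its interval, at chrX:77786030-77786609 and 103 bp outside the gene, showed 8.11-fold enrichment and the same −log10 q of 30.05 as that of TSPYL2. HIRA, another H3.3 chaperone, had its interval 43399 bp away at rank 140, and CABIN1, a subunit of the HIRA complex, one inside the gene at rank 245. In a list of 4 candidate partners of TSPYL proteins (CASK, TBR1, USP7 and SET), 0 had an interval. Each of these counts is to be read beside the 2.94% of all protein-coding genes called after Nutlin-3a.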

How the data were processed

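RFX7 ChIP-seq of U2OS cells is represented by 8 samples in 4 groups of 2, and by 2 merged lists of intervals whose rows carry no replicate number. The authors deposited a fold enrichment (a ratio) and a −log10 q value per interval, and a score that was not used. Per the submitters' processing notes the build is hg38, and MACS2 2.2.7.1 and bedtools 2.29.2 are among the tools named; how replicates were merged and the aligner are not given in the sources used here. Read depth is unknown, so scores served only to rank intervals within a list (ties share the best rank).

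The members and gene lists were chosen with earlier results of these data known. The midpoint stood in for the summit. Genes, starts, strands and sequences came from RefSeq GRCh38.p14; all 5 members matched the gene table and 4 the table of start windows. Named are the members, the genes at or between them and their intervals, and list genes with an interval. The placement rule was tested on made-up intervals with known answers (Python 3.11.15, pandas 2.3.3). Protein comparisons, exon positions and a search of whole intervals were not done here.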

Additional observations from a re-analysis of the deposited data

How the results depend on the processing

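Each of 7 results was recomputed under the alternatives that could be run, giving 31 values, of which 30 kept within 1.5 times the reported number. The members with a Nutlin-3a interval numbered 2 in place of 3 with a limit of 5 kb, with each interval given only to the gene with the nearest end, or with an interval over a start window (a placement added after seeing the data), because TSPYL4 then dropped out by construction; they numbered 3 with 100 kb, with any base in the window, with a −log10 q of at least 10 and with neighbours joined within 1 kb. The 13 values for DMSO were all 0. They could hardly move, since no DMSO midpoint lay nearer to a member than 1620458 bp. These zeros are counted among the 30, as are the values of 2 in place of 3, which stand at the limit of 1.5 times. The value that moved was the number of members with an X-box form in the start window, which was 1 by the forms listed first and 2 with TTGCNATGG, a form added after seeing the data. The rank of the TSPYL1 interval was 121 by fold enrichment and 115 after joining, and that of TSPYL2 was 41 and 35.

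No paired analysis was possible because the replicates of a treatment appear only as a single merged list, and leaving out single replicates was not run for the same reason. The search of whole intervals and the protein alignments were not run. Because depth is unknown, little can be read from absence in the DMSO list.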
